A study of Mus musculus with 9 samples.

Results

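The 7 genes mt-Nd1, mt-Nd2, mt-Nd3, mt-Nd4, mt-Nd4l, mt-Nd5 and mt-Nd6 are the complex I subunit genes carried by the mitochondrial genome, and they were chosen by name from the 55401 genes of the count table. All 7 were among the 16762 genes with enough counts to be tested. RNA-seq was performed on primary neonatal mouse ventricular myocytes (NMVMs), the contractile cells of the newborn heart, taken from WT C57BL/6J mice 1 day after birth and grown in DMEM with 10% FBS. The control group (n = 3 libraries) stayed in that complete medium under normoxia. The hypoxia group (n = 3) was moved to DMEM lacking both glucose and serum and kept for 6 h in a sealed AnaeroPack chamber, and the hypoxia + rSRGN group (n = 3) was treated in the same way with recombinant serglycin (rSRGN), a secreted proteoglycan, in the medium. Any difference from control thus combines low oxygen with the loss of glucose and serum, which cannot be told apart, whereas rSRGN is the only difference that the labels give between both hypoxic groups. The labels do not say whether the 3 libraries of a group came from separate cultures or animals, so p-values measure the spread between these libraries.

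Complex I, or NADH:ubiquinone oxidoreductase, takes electrons from NADH and passes them to ubiquinone while pumping protons across the inner mitochondrial membrane, and heart muscle depends heavily on it for ATP. Its membrane arm is built around the hydrophobic ND subunits made inside the mitochondrion, and the remaining subunits are encoded in the nucleus and imported. Mitochondrial DNA is transcribed from both strands into long precursors that are cut at tRNAs, so that several mRNAs, the rRNAs and the tRNAs arise from common transcripts, and mt-Nd6 is the only protein-coding gene read from the opposite strand to the others.

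On the GRCm38 mitochondrial genome, mt-Nd1 lies at chrM:2751-3707, mt-Nd2 at chrM:3914-4951 and mt-Nd3 at chrM:9459-9806, all on the plus strand. They are followed there by mt-Nd4l at chrM:9877-10173, mt-Nd4 at chrM:10167-11544 and mt-Nd5 at chrM:11742-13565. On the minus strand, mt-Nd6 lies at chrM:13552-14070. Each is a protein-coding gene with a single exon and no intron. The 7 genes are 297 to 1824 bases long. Read as mRNA, mt-Nd6 has 28.1% G and 5.97% C, whereas the other 6 have 8 to 11.6% G and 22.1 to 30% C.

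Overlapping and copied sequence can limit how well these genes are counted, and the stretches below show where it lies. The counting ignored strand, and 2 pairs of members overlap. The last 14 bases of mt-Nd5 and mt-Nd6 lie on opposite strands of the same DNA, here in capitals at the ends of both mRNAs, each read 5′ to 3′ (chrM:13526-13565, plus strand, and chrM:13552-13591, minus strand).
mt-Nd5 end: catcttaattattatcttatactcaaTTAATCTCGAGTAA
mt-Nd6 end: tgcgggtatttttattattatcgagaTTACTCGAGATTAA
The last 7 bases of mt-Nd4l are also the start of mt-Nd4, on the same strand and in another reading frame (capitals, chrM:10134-10173 and chrM:10167-10206).
mt-Nd4l end: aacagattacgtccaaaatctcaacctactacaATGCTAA
mt-Nd4 start: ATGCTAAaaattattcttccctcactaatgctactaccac
Because the counts carry no strand, RNA of the minus strand across mt-Nd5, or of the plus strand across mt-Nd6, cannot be told apart from the mRNAs themselves.

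Copies of mitochondrial DNA in the nuclear genome touch 3 members more heavily. A run of unprocessed pseudogenes on the minus strand of chromosome 1 holds copies of mt-Nd3 (Gm28438, chr1:24612775-24613119), mt-Nd4l (Gm10222, chr1:24612407-24612700) and mt-Nd4 (Gm28439, chr1:24611535-24612410). Gm10222 was identical to mt-Nd4l over all 294 of its bases, and Gm28439 to mt-Nd4 over 876 bases. Gm28438 matched mt-Nd3 at 344 of 345 bases, the exception being T3C, counted from 1 at the start of the gene with the mitochondrial base first. The beginnings of both, with that base in capitals (chrM:9459-9518, plus strand, and chr1:24613060-24613119, minus strand), show how little separates them.
mt-Nd3 start: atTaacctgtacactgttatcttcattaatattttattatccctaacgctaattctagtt
Gm28438 start: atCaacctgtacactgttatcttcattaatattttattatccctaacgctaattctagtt
In mt-Nd4 the copied part stops at base 876 of 1378. The stretch chrM:11013-11072 crosses that point, with the bases also present in Gm28439 in capitals and the part of mt-Nd4 that lies outside the copy in lower case.
mt-Nd4 at the end of the copy: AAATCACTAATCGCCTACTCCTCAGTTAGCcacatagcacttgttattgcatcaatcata

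Every 100-base window of each gene was then looked for in all annotated transcripts outside the mitochondrial genome, on both strands. No window of mt-Nd1, mt-Nd5 or mt-Nd6 was found there, and 3.19% of the windows of mt-Nd2 were. The share was 60.8% for mt-Nd4, 97.6% for mt-Nd3 and 98.5% for mt-Nd4l. Levels are given as CPM, the counts scaled to library size, and between genes as CPM per kb of gene. In control, mt-Nd1 had 8820 ± 667 CPM per kb (SD, n = 3), mt-Nd4 3480 ± 254, mt-Nd4l 303 ± 132 and mt-Nd3 60.8 ± 12.7. The 3 genes with these copies were thus the lowest of the 7. Among the other mitochondrial mRNAs, mt-Co2, mt-Co3 and mt-Atp6 also had 99.5 to 99.9% of their windows in nuclear transcripts and stood at 134 to 274 CPM per kb in control, whereas mt-Cytb, with 0 such windows, stood at 10800 ± 466. mt-Co1 had 30.8% of its windows there and yet the highest level of the 13, 26200 ± 1690 CPM per kb. The short gene mt-Atp8 had 0 such windows and 29.6 ± 16.8 CPM per kb. Counting leaves out fragments that align to several places unless told otherwise. The part of this in the levels of mt-Nd3, mt-Nd4l and mt-Nd4 was not tested. Counts assigned to Gm10222 made up 40.2 to 46.2% of the counts of mt-Nd4l and Gm10222 together in control, 46.4 to 56.2% in hypoxia and 42.4 to 56.8% in hypoxia + rSRGN. For mt-Nd3 and Gm28438 the share of the copy was 16 to 26.1% over all 9 libraries, and for mt-Nd4 and Gm28439 it was 1.62 to 1.71% in control, 1.36 to 1.94% in hypoxia and 1.06 to 1.23% in hypoxia + rSRGN. The counts of Gm28439 were lower in hypoxia + rSRGN than in hypoxia (log2 fold change -0.84 ± 0.12 SE, edgeR adjusted p = 0.00015). The levels of mt-Nd3, mt-Nd4l and mt-Nd4 given here are therefore those of the assigned counts alone. The same holds for the orders, shares and ratios below in which these genes enter.

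**Figure D1:**
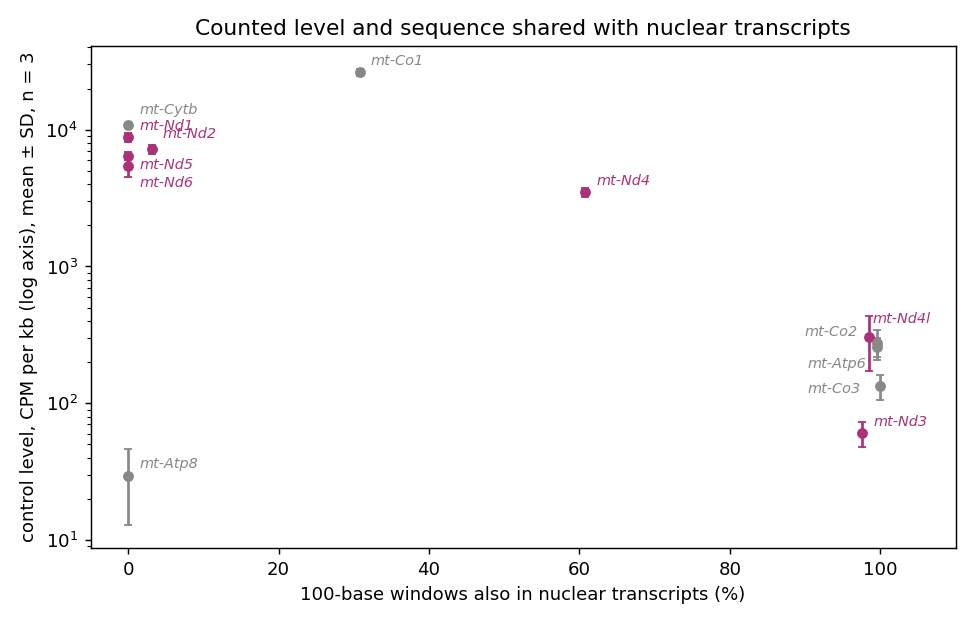
Level of the 13 mitochondrial mRNAs in control (mean ± SD of 3 libraries, CPM per kb, log axis) against the percent of their 100-base windows that also occur in nuclear transcripts, with complex I genes in purple and the others in grey. Genes with 97.6 to 99.9% of their windows in nuclear transcripts sit between 60.8 and 303 CPM per kb, mt-Nd4 at 60.8% of windows has 3480 CPM per kb, mt-Co1 at 30.8% has the highest level (26200), and mt-Atp8 is low without any such window.

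In depth the 9 libraries ranged from 16583985 to 22781557 assigned counts, with the 3 control libraries above all others. The 7 genes together held 3.23 to 3.78% of the counts in control, 1.07 to 1.29% in hypoxia and 0.901 to 1.06% in hypoxia + rSRGN. Cardiomyocyte markers were present in every group, with a summed level of 59900 to 72800 CPM in control, 5070 to 7960 CPM in hypoxia and 10400 to 11000 CPM in hypoxia + rSRGN. The 20 markers were all lower in hypoxia than in control (median log2 fold change -3.59), led by Myh7 (-4.95 ± 0.20 SE) and Pln (-4.74 ± 0.12). Fibroblast markers were called higher, by the limits given below, in 7 of 10 cases (median 0.90, Thy1 by 1.53 ± 0.07 and Dcn by 1.47 ± 0.07). All 10 had log2 fold changes above 0, from 0.19 to 1.53. Macrophage markers were called lower in 9 of 10 (median -3.89, C1qa and Adgre1 most), and all ran from -6.77 to -0.41. Endothelial markers were called lower in 7 of 10 (median -1.08, Vwf and Erg most). Of the smooth muscle and pericyte markers, 1 of 6 was called lower, Abcc9 (-3.93 ± 0.13), within the range of the cardiomyocyte markers (-4.95 to -2.23). The other 5 ran from -0.47 to 0.54. Which cells the Abcc9 counts came from was not tested. The summed level of the endothelial markers was 115 to 149 CPM in control and 107 to 123 CPM in hypoxia, and Flt1, the most abundant of them, had a log2 fold change of 0.50 (adjusted p = 1.46e-05 in edgeR), under the fold limit. Notch3, of the smooth muscle and pericyte list, was likewise at 0.54 (edgeR adjusted p = 0.00034). Red cell genes did not reach the level for a test, with Hba-a2 at 0 in all libraries. In bulk RNA, fewer cells of a type and less RNA per cell cannot be told apart, and the part of cell composition in the values that follow was not tested.

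For counts, a gene was called when edgeR's quasi-likelihood test gave a Benjamini-Hochberg adjusted p below 0.05 over all genes tested and the fold change was at least 1.5. In hypoxia against control, 6 of the 7 complex I genes were called lower and 0 higher, against 25.1% of all genes tested called lower and 26.4% called higher. The exception was mt-Nd4. The log2 fold changes ran from -0.43 to -2.88 with a median of -1.81, against a median of 0.054 over all genes tested. In all 7, every hypoxia library lay below every control library, as it did for 35.3% of all genes tested. The fall was largest in mt-Nd6 and mt-Nd5, which lie next to each other on opposite strands.

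mt-Nd1 encodes the subunit at the joint between the membrane arm and the peripheral arm, where ubiquinone enters. Its level was 9009, 7753 and 8573 CPM in control libraries 1, 2 and 3, 2427, 2450 and 2333 CPM in hypoxia, and 2359, 2265 and 2002 CPM in hypoxia + rSRGN. The 3 hypoxia libraries were close to each other and far below the lowest control library. The fall was 3.51-fold (log2 fold change -1.81 ± 0.08 SE, edgeR adjusted p = 1.67e-14).

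mt-Nd2, a proton-pumping subunit of the membrane arm, had 8083, 6925 and 7415 CPM in control, 2817, 3444 and 2598 CPM in hypoxia, and 2689, 2576 and 2244 CPM in hypoxia + rSRGN. Hypoxia library 2 was the highest of its group here. The level fell 2.53-fold from control to hypoxia (log2 fold change -1.34 ± 0.10 SE, edgeR adjusted p = 5.75e-11). Relative to mt-Nd1 it went up, from 0.885 ± 0.0176 counts per mt-Nd1 count in control to 1.23 ± 0.157 in hypoxia (SD, n = 3), with no overlap.

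mt-Nd4 and mt-Nd5 encode large subunits of the membrane arm that are related to bacterial cation antiporters and pump protons. mt-Nd4 had 5094, 4410 and 4875 CPM in control, 3486, 3824 and 3366 CPM in hypoxia, and 3170, 3055 and 2762 CPM in hypoxia + rSRGN. The groups did not overlap, but the fall was the smallest of the 7, 1.35-fold (log2 fold change -0.43 ± 0.08 SE, edgeR adjusted p = 8.12e-05), under the fold limit. Adding the counts of its nuclear copy left the log2 fold change at -0.43.

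mt-Nd5 had 12590, 11170 and 11310 CPM in control, the highest counts of the 7, and 1846, 2738 and 1704 CPM in hypoxia. It had 1934, 1737 and 1604 CPM in hypoxia + rSRGN. Hypoxia library 2 was again above the other 2 of its group, and still far below control. The fall was 5.58-fold (log2 fold change -2.48 ± 0.13 SE, edgeR adjusted p = 1.46e-13). mt-Nd5 and mt-Nd4 are neighbours on the same strand, and counts of mt-Nd5 per count of mt-Nd4 went from 2.44 ± 0.11 in control to 0.584 ± 0.115 in hypoxia and 0.586 ± 0.0213 in hypoxia + rSRGN.

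mt-Nd6, the subunit encoded on the other strand, is a small membrane arm protein needed for complex I assembly. It had 3330, 2812 and 2351 CPM in control, 370.4, 482.9 and 300.6 CPM in hypoxia, and 360.8, 349.3 and 305 CPM in hypoxia + rSRGN. The highest of the 6 hypoxic libraries was far below the lowest control library. The fall was the largest of the 7, 7.36-fold (log2 fold change -2.88 ± 0.14 SE, edgeR adjusted p = 2.83e-14). Counts of mt-Nd6 per count of mt-Nd5 went from 0.208 to 0.264 in control to 0.176 to 0.201 in hypoxia, so that the groups did not overlap but came close.

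mt-Nd3 and mt-Nd4l encode the small membrane subunits, mt-Nd3 with a loop at the ubiquinone site. mt-Nd3 had counts of 385, 447 and 538 in control and of 162, 119 and 152 in hypoxia, a fall of 2.6-fold (log2 fold change -1.38 ± 0.16 SE, edgeR adjusted p = 9.24e-08). In hypoxia + rSRGN its counts were 147, 144 and 112. mt-Nd4l had counts of 1338, 2980 and 1567 in control, 331, 483 and 198 in hypoxia, and 197, 356 and 161 in hypoxia + rSRGN. The spread within its groups was the widest of the 7, with a CV of 43.6% in control, where library 2 was about as high as the other 2 together. The fall from control to hypoxia was 4.73-fold (log2 fold change -2.24 ± 0.26 SE, edgeR adjusted p = 1.15e-07). With the counts of the nuclear copies added, an alternative chosen after the data were seen, the log2 fold change was -1.35 ± 0.14 for mt-Nd3 and -1.96 ± 0.25 for mt-Nd4l, and both were still called.

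**Figure D2:**
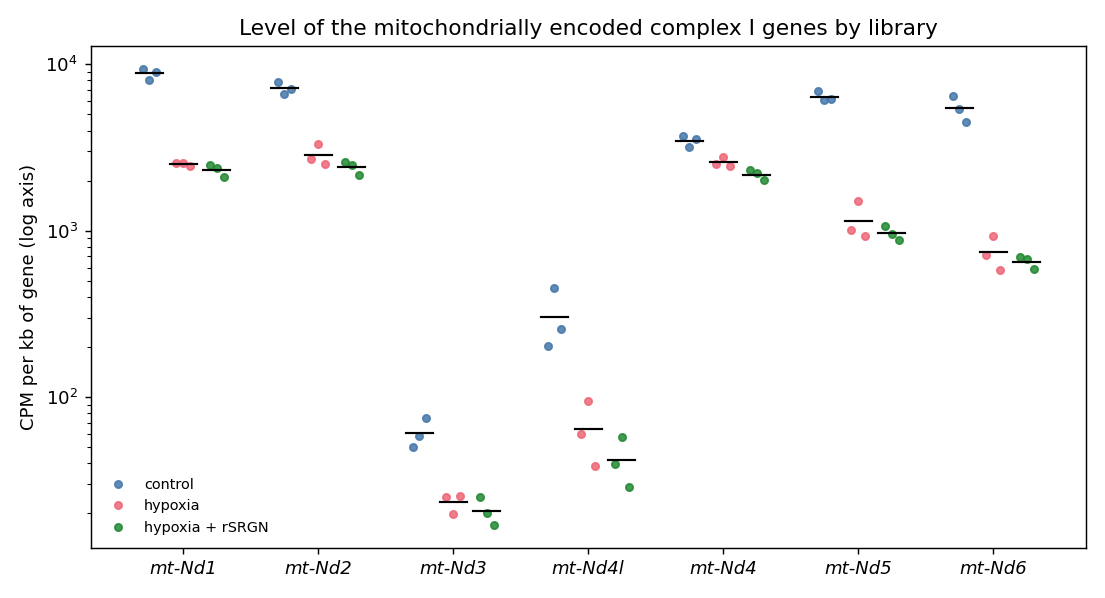
Level of each of the 7 genes in the 9 libraries, in CPM per kb of gene on a log axis, with points for libraries and bars for the group means of 3. In every gene the 3 control points lie above the 6 points of the hypoxic groups, and the gap is smallest in mt-Nd4 (3480 against 2580 CPM per kb in the means) and largest in mt-Nd6 (5450 against 741).

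The order of the levels per length, from the assigned counts alone, changed between the groups. In control the order of CPM per kb was mt-Nd1 (8820), mt-Nd2 (7200), mt-Nd5 (6410), mt-Nd6 (5450), mt-Nd4 (3480), mt-Nd4l (303) and mt-Nd3 (60.8). The ranges of mt-Nd2 and mt-Nd5 overlapped there, as did those of mt-Nd5 and mt-Nd6, and the other neighbours were apart. In hypoxia mt-Nd2 (2840), mt-Nd4 (2580) and mt-Nd1 (2510) stood together at the top with overlapping ranges, above mt-Nd5 (1150) and mt-Nd6 (741). The ranges of mt-Nd5 and mt-Nd6 were 934 to 1500 and 579 to 930 CPM per kb, which did not overlap. In hypoxia + rSRGN the top was mt-Nd2 (2410), mt-Nd1 (2310) and mt-Nd4 (2170), again overlapping, then mt-Nd5 (964) and mt-Nd6 (652). mt-Nd4l and mt-Nd3 were lowest in all 3 groups.

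Next, each gene was read within the mitochondrial mRNA pool, as its share of the counts of the 13 mitochondrial mRNAs, so that nuclear genes do not enter the total, although fragments of the nuclear copies cannot be told apart. Of these counts, the 7 genes held 38.7 to 40.9% in control, 37.4 to 39.2% in hypoxia and 35.4 to 36.1% in hypoxia + rSRGN, while the pool itself went from 8.07 to 9.24% of all counts in control to 2.74 to 3.45% in hypoxia. Within the 7, the make-up changed. mt-Nd4 went from 5.41 ± 0.0833% in control to 11.9 ± 0.894% in hypoxia, and mt-Nd2 from 8.43 ± 0.203% to 9.83 ± 0.122% (SD, n = 3). mt-Nd5 went the other way, from 13.2 ± 0.48% to 6.91 ± 0.851%, as did mt-Nd6, from 3.19 ± 0.499% to 1.27 ± 0.124%, and mt-Nd1, from 9.53 ± 0.168% to 8.09 ± 0.933%. The difference for mt-Nd1 was -1.43 percentage points, and -0.916 without hypoxia library 2. In these 5 of 7 genes the groups did not overlap. An exact two-sided permutation test gave p = 0.1 for each, the smallest value that 3 libraries against 3 can give. For mt-Nd3 (p = 0.5) and mt-Nd4l (p = 0.2, exact permutation test) the shares overlapped. Of the other 6 mRNAs of the pool, 2 did not overlap, mt-Cytb, at 8.36 percentage points more in hypoxia than in control, and mt-Co1, at -6.77 points. With rSRGN the share of mt-Nd2 was 9.13 ± 0.204%, between control and hypoxia and overlapping with neither. The shares of both hypoxic groups did not overlap in 1 of the 7, mt-Nd2, and in 3 of the other 6 mRNAs, mt-Cytb, mt-Co1 and mt-Co2 (exact permutation p = 0.1 each).

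Fitted in edgeR with the libraries scaled to these 13 mRNAs in place of all genes, mt-Nd4 was higher in hypoxia than in control (log2 fold change 1.14 ± 0.13 SE, edgeR adjusted p = 6.75e-11). mt-Nd6 (-1.33 ± 0.13), mt-Nd5 (-0.93 ± 0.13) and mt-Nd4l (-0.74 ± 0.22) were lower on that scale. mt-Nd1 (-0.24 ± 0.13), mt-Nd2 (0.22 ± 0.13) and mt-Nd3 (0.20 ± 0.20) did not pass the test. The direction of mt-Nd4 thus depended on what the libraries were scaled to. For mt-Nd1, mt-Nd2 and mt-Nd3 this fit showed no direction, although the shares of mt-Nd1 and mt-Nd2 above did not overlap between the groups. The unequal change among the members was the same measurement on either scale, since a scaling factor moves all genes of a library together.

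**Figure D3:**
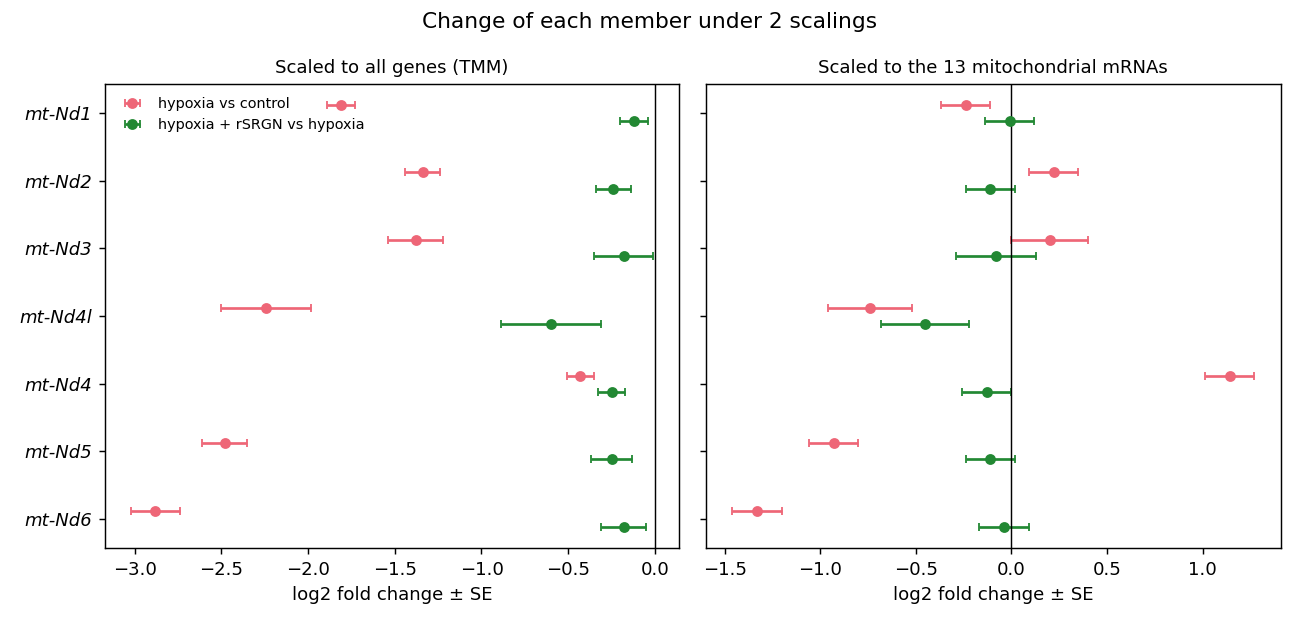
Log2 fold change with its SE for each gene, scaled to all genes (left) and to the 13 mitochondrial mRNAs (right), for hypoxia against control (red) and hypoxia + rSRGN against hypoxia (green). On the left all red points lie below 0, from -0.43 for mt-Nd4 to -2.88 for mt-Nd6, and on the right they spread from 1.14 to -1.33.

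**Figure D4:**
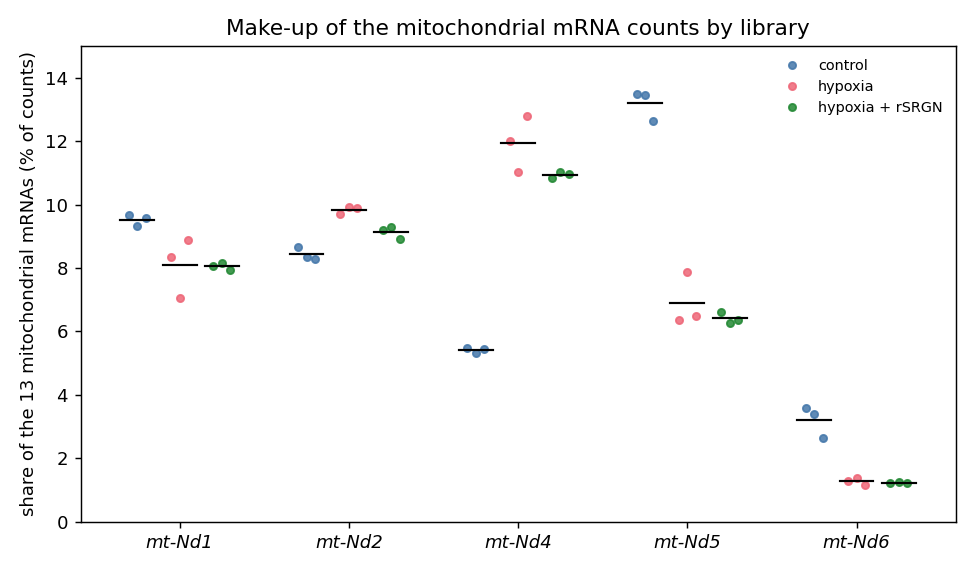
Share of the counts of the 13 mitochondrial mRNAs taken by 5 complex I genes in each library, with bars for the group means of 3. The mean of mt-Nd4 is 5.41% in control and 11.9% in hypoxia, that of mt-Nd5 13.2% and 6.91%, and the hypoxia + rSRGN means are 10.9% and 6.41%. For mt-Nd2 the hypoxia + rSRGN points lie between those of the other groups.

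Of the other mitochondrial mRNAs, 5 of 6 were called lower in hypoxia against control. mt-Co1, the catalytic subunit of complex IV, fell most (log2 fold change -1.79 ± 0.10), followed by mt-Atp6 (-1.65 ± 0.13), mt-Co3 (-1.32 ± 0.11), mt-Cytb (-0.88 ± 0.10) and mt-Co2 (-0.81 ± 0.21). mt-Atp8 was not called (0.39 ± 0.63), with 375 counts in hypoxia library 2 against 19 in the next hypoxia library. The log2 fold changes of mt-Nd6, mt-Nd5, mt-Nd4l and mt-Nd1 (-1.81) lay below those of all 5, the last by little, and that of mt-Nd4 lay above them. The mitochondrial rRNAs went the other way. mt-Rnr1 rose from 424 ± 49.8 to 5940 ± 382 CPM (log2 fold change 3.81 ± 0.10) and mt-Rnr2 from 1870 ± 209 to 18400 ± 711 CPM (3.30 ± 0.10), and mt-Nd1 went from 4.54 ± 0.27 counts per count of mt-Rnr2, which precedes it on the same precursor, to 0.131 ± 0.00616. As poly(A) enrichment preceded library construction, rRNA counts depend on how much rRNA was carried through that step, and the part of the enrichment or of RNA quality in the change of the 7 genes was not tested.

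Most nuclear genes of complex I were also lower. All 7 nuclear core subunits, which carry the NADH site and the iron-sulfur clusters, were called lower in hypoxia against control (median log2 fold change -1.17), led by Ndufs1 (-1.95 ± 0.08), the largest subunit with iron-sulfur clusters, and Ndufv1 (-1.89 ± 0.08), which binds NADH. Of 30 accessory subunits tested, 26 were called lower and 0 higher (median -1.04), led by Ndufa9 (-2.00 ± 0.08) and Ndufa5 (-1.86 ± 0.09). Of 16 assembly factors, 8 were called lower and 0 higher (median -0.69), led by Ndufaf1 (-2.10 ± 0.13) and Ecsit (-1.37 ± 0.11). Ndufaf2 went the other way (0.57 ± 0.12, edgeR adjusted p = 0.00019), under the fold limit. Of 11 genes of mitochondrial transcription and mRNA stability, 6 were called lower and 0 higher (median -0.60). Among these, Polrmt, the mitochondrial RNA polymerase, fell by 1.40 ± 0.12 on the log2 scale, and Lrpprc, which stabilises mitochondrial mRNAs, by 1.41 ± 0.07. These shares stand beside the 25.1% of all genes tested that were called lower.

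**Figure D5:**
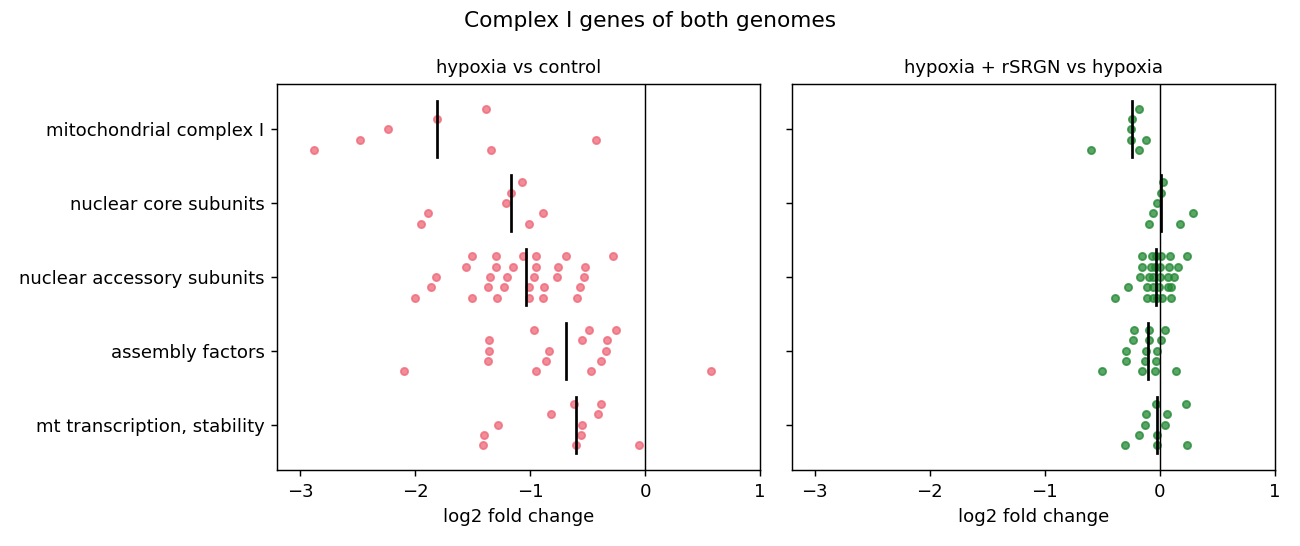
Log2 fold change of each gene (points) and the median (bar) for the complex I genes of the mitochondrial genome, nuclear core and accessory subunits, assembly factors, and genes of mitochondrial transcription and mRNA stability. The medians in hypoxia against control (left) are -1.81, -1.17, -1.04, -0.69 and -0.60, and in hypoxia + rSRGN against hypoxia (right) they lie between -0.24 and 0.01.

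Adding rSRGN to hypoxic cells was compared with hypoxia alone. None of the 7 genes was called by edgeR, 0 lower and 0 higher, against 0.859% of all genes tested called lower and 2.27% called higher, and DESeq2 called 0 as well. With an unadjusted p in place of the adjusted one, 1 passed, mt-Nd4l. The 7 log2 fold changes were all below 0, from -0.12 to -0.60 with a median of -0.24, against a median of -0.029 over all genes tested. The lowest adjusted p was that of mt-Nd4, with 3170, 3055 and 2762 CPM against 3486, 3824 and 3366 CPM, each library below each hypoxia library (1 of 7 genes, against 15.5% of all genes tested). Its change was -0.25 ± 0.08 on the log2 scale (edgeR adjusted p = 0.0418), under the fold limit. With RLE scaling mt-Nd4 did not pass the p limit (edgeR adjusted p = 0.0723). Over the alternatives scaled to all genes its adjusted p in edgeR reached 0.218. mt-Nd4l had the largest difference and the widest error (-0.60 ± 0.29, edgeR adjusted p = 0.164). For mt-Nd1 (-0.12 ± 0.08), mt-Nd2 (-0.24 ± 0.10), mt-Nd3 (-0.18 ± 0.17), mt-Nd5 (-0.25 ± 0.12) and mt-Nd6 (-0.18 ± 0.13) the libraries overlapped.

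Hypoxia library 2 was the highest of its group in 6 of the 7 genes, all but mt-Nd3. Without it the log2 fold change of hypoxia + rSRGN against hypoxia was -0.01 for mt-Nd5, 0.01 for mt-Nd6, -0.11 for mt-Nd2 and -0.22 ± 0.28 for mt-Nd4l (edgeR adjusted p = 0.644). Without hypoxia + rSRGN library 3 it was -0.05 for both mt-Nd1 and mt-Nd3. In contrast, mt-Nd4l was called lower without hypoxia library 3 (-0.86 ± 0.26, edgeR adjusted p = 0.0382) and when the replicate number was used as a block (-0.60 ± 0.14, edgeR adjusted p = 0.00801). Library 2 had the highest mt-Nd4l counts in each group, with 2980 in control, 483 in hypoxia and 356 in hypoxia + rSRGN. In the same comparison, 16 of 20 cardiomyocyte markers were called higher (median 0.78), among them Myh7 (0.88 ± 0.18) and Pln (0.90 ± 0.11). Of the other 6 mitochondrial mRNAs, 2 were called lower, mt-Co2 (-0.87 ± 0.22, edgeR adjusted p = 0.0101), with 171.8 CPM in hypoxia library 2 and 82.67 and 66.78 CPM in the other hypoxia libraries, and mt-Atp8 (-2.77 ± 0.78, edgeR adjusted p = 0.0177), the latter with 375 counts in hypoxia library 2 and 19 to 25 in the other 5 hypoxic libraries, and 0 higher. mt-Atp6 passed the p limit under the fold limit (-0.57 ± 0.13, edgeR adjusted p = 0.00458). Of the cell type lists, 1 fibroblast marker was called lower, and 1 endothelial and 2 smooth muscle and pericyte markers were called higher, with 0 of 10 macrophage markers called. The last 2 were Abcc9 (0.92 ± 0.13) and Rgs5 (0.78 ± 0.21), both within the range of the cardiomyocyte markers here (0.23 to 1.03). Which cells their counts came from was not tested. For nuclear core and accessory subunits, assembly factors, and transcription and stability genes, edgeR called 0 of 7, 30, 16 and 11 in either direction. Ndufv1 (0.29 ± 0.08, adjusted p = 0.0158), Ndufa9 (0.24 ± 0.08, adjusted p = 0.0415) and Lrpprc (0.24 ± 0.07, adjusted p = 0.0259) passed the p limit in edgeR without reaching the fold limit, all 3 higher. Lower under the same limits were Ndufb3 (-0.39, adjusted p = 0.015), Ndufc2 (-0.28, adjusted p = 0.033) and Ndufaf8 (-0.50, adjusted p = 0.0494), named here after their values were seen.

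Hypoxia + rSRGN against control shares its libraries with both comparisons above and is given beside them. All 7 genes were called lower and 0 higher, against 24.7% of all genes tested called lower and 24.1% called higher. The log2 fold changes were -1.94 ± 0.08 for mt-Nd1, -1.58 ± 0.10 for mt-Nd2, -1.56 ± 0.16 for mt-Nd3 and -2.85 ± 0.27 for mt-Nd4l. They were -0.68 ± 0.08 for mt-Nd4, which here passed the fold limit at 1.6-fold, -2.73 ± 0.13 for mt-Nd5 and -3.06 ± 0.14 for mt-Nd6, where the fall was 8.37-fold.

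The summed level of the 7 genes was set beside every gene outside the mitochondrial genome that averaged 10 CPM or more, as a description over the 9 libraries. The highest correlations of log2 CPM were with Gsta4 (Pearson r = 0.9966), a glutathione transferase, Ndufb6 (0.9961), an accessory subunit of complex I, Hnrnph2 (0.9953), Dld (0.9951), a subunit of the pyruvate dehydrogenase complex, and Fam214a (0.9949). For mt-Nd6 alone they were with Gsta4 (0.9969), Mtif2 (0.9963), a mitochondrial translation initiation factor, Dld (0.9953), Hibch (0.9951) and Fam122b (0.9948). Such values were common. Of 9732 genes, 2188 had r above 0.9 with the summed level and 2252 with mt-Nd6, and all share the split of the 9 libraries into 3 control and 6 hypoxic ones.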

How the data were processed

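For 9 poly(A)-enriched libraries the authors deposited raw fragment counts (whole numbers) by gene, not normalized. Per the file headers, featureCounts 2.0.1 counted paired fragments on exons of GENCODE release 25 (GRCm38) with no strand option. The submitters' processing notes name HISAT2 and mm10. Fragments that align to several places are left out by default. All 9 columns of counts were used (0 unused).

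Tests were run with edgeR 4.0.16 under R 4.3.3 (filterByExpr, TMM, a mean per group, all 9 libraries in 1 fit, quasi-likelihood test, Benjamini-Hochberg adjustment). CPM values are TMM-scaled. The step was tested on simulated data in which few genes changed, equally in both directions. Its scaling under a change as wide as that in hypoxia was not tested. Alternatives were DESeq2 1.42.0, RLE scaling, library size alone, totals without the mitochondrial genome, scaling to the 13 mitochondrial mRNAs, other filters, the unadjusted p, no fold limit, fits of 2 groups at a time, a replicate block, leaving out each library, and, added after the data were seen, counts of nuclear copies. The members and gene lists were chosen with earlier results of these data known. Besides the members, the text names the other mitochondrial mRNAs and rRNAs, the 2 called genes with the largest rise and fall of each list in hypoxia against control, and the 5 genes most correlated. It also names the nuclear copies found by sequence. Flt1, Notch3, Hba-a2, Ndufaf2, Rgs5, Ndufb3, Ndufc2 and Ndufaf8 fall outside this rule and were named after their values were seen. Deviations of libraries with the same number correlated at -0.037 to 0.021, and those of libraries with different numbers at -0.048 to 0.046. No pairing by number was thus seen over all genes tested. This cannot exclude pairing, and the labels do not say. Libraries of a group differed by more than counting noise (chi-square per degree of freedom of 3.63 to 13.1 in 9 pairs).

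Sequences were read from the GENCODE release 21 transcripts (GRCm38, 141767 transcripts), in which all 18 genes placed here had the positions of the deposited table. Proteins were not analysed here. Figures were drawn with matplotlib.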

Additional observations from a re-analysis of the deposited data

How the results depend on the processing

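The call of 6 of the 7 genes in hypoxia against control, and of 7 in hypoxia + rSRGN against control, was the same number under every alternative in which calls were counted, with each library left out too (6 to 6 and 7 to 7), except that 7 were called in hypoxia against control without a fold limit (mt-Nd4 added). In hypoxia + rSRGN against hypoxia the number called was 0 in the main result and 1 when genes needed only 1 count in total (mt-Nd4l), the unadjusted p (mt-Nd4l), no fold change limit (mt-Nd4) and the replicate block (mt-Nd4l), and 0 to 1 with a library left out (mt-Nd4l without hypoxia replicate 3). The genes called in that comparison were 525, and 899 with the unadjusted p, 2790 without a fold limit, 321 without hypoxia replicate 3 and 699 without hypoxia replicate 2. The replicate block changed no other call of a member, and whether the numbers pair the libraries is not known. The log2 fold change of mt-Nd6 in that comparison was -0.33 to 0.01 with a library left out, turning sign without hypoxia replicate 2. Scaled to the 13 mitochondrial mRNAs, mt-Nd4 turned to 1.14 in hypoxia against control and 1.02 in hypoxia + rSRGN against control, while mt-Nd2 (0.22 and 0.11), mt-Nd3 (0.20 and 0.13) and mt-Nd1 (-0.24 in both) did not pass the test in either direction, with adjusted p of 0.0761 to 0.546. Library size alone moved the median of all genes to 0.122. The number of genes with no overlap in share in hypoxia against control was 5 to 7 with a library left out. With rRNAs in the sum, 11 differences in share from control moved by more than the replicate SD, and those of mt-Nd2 and mt-Nd3 changed sign. For mt-Nd2 in hypoxia the difference was -2.81 percentage points in place of 1.40.
Of 357 log2 fold changes of members, 344 kept their direction and call. These are not independent checks, since the fits share libraries and the unadjusted p leaves the fold changes as they were. Exact tests of 3 libraries against 3 cannot go below 0.1. The spread between libraries was widest for mt-Nd4l, and strand and nuclear copies cannot be resolved from these counts.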
